A study of Mus musculus with 9 samples.

Results

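Klhl13, Calcoco2, Mpzl2, Arl14epl, Inpp5d, Fmr1nb, AI506816 and Uggt2 are 8 mouse genes whose signal differed between induced pluripotent stem (iPS) cells and the embryonic stem cell line R1. They were chosen by that difference, so every iPS against R1 value below is a description and carries no test. They are 8 of the 19938 genes that had a probe set with exactly 1 gene symbol. They were measured by 9 of 35557 probe sets, since Calcoco2 had 2. RNA was measured on whole-transcript arrays in 9 cultures, 3 arrays to a group: iPS cells derived from fibroblasts, R1, and embryonic fibroblasts (MEF) of a passage below 3, which were the cells of origin. The labels name no reprogramming factors, strain, sex, culture condition or number of iPS clones. R1 is 1 established line, so a difference from it may belong to the line. The arrays of a line are described as biological repeats, but no separate derivations are stated, and p-values measure the spread between these arrays only.

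A reprogrammed cell is judged against embryonic stem cells on the one side and its cell of origin on the other. A gene that reprogramming turns on can stop short of the embryonic stem cell level, reach it or pass it, and a fibroblast gene can be silenced in part or in full. The genes described here belong to unrelated processes. Klhl13 is an X-linked adaptor that brings substrates to the Cul3 ubiquitin ligase, with Aurora B among them. Calcoco2, known as NDP52 in human cells, is a receptor that carries bacteria and damaged mitochondria to autophagosomes. Mpzl2 is an immunoglobulin-type adhesion protein of epithelia. Inpp5d encodes SHIP1, which removes the 5-phosphate of the lipid product of PI3 kinase and is best known in blood cells. Fmr1nb lies beside Fmr1 on the X chromosome, and its human counterpart is a cancer/testis antigen. Uggt2 belongs to the enzymes that re-glucosylate misfolded glycoproteins in the endoplasmic reticulum (ER). Arl14epl is a relative of Arl14ep, and AI506816 is annotated as a long non-coding RNA. No role is given here for these last members.

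The sequence around the annotated gene start is shown for the 4 members whose iPS level lay between R1 and MEF, and for Klhl13, which had the highest X-linked iPS over R1 difference. Each window runs 5′ to 3′ on the gene's strand, from 250 bases before the start to 50 after it, and comes from RefSeq on GRCm38.p6. The positions are chrX:23365033-23365332 (minus strand) for Klhl13, chr1:87620062-87620361 (plus) for Inpp5d, chrX:68761589-68761888 (plus) for Fmr1nb, chr5:23712618-23712917 (minus) for AI506816 and chr14:119099385-119099684 (minus) for Uggt2. The AI506816 window is that of the annotated locus on chromosome 5. The 10 nearest identifiers of its probe set all named chromosome 1 genes, so this window may not belong to the measured transcript. Capitals mark matches to the searched motifs on either strand.
Klhl13: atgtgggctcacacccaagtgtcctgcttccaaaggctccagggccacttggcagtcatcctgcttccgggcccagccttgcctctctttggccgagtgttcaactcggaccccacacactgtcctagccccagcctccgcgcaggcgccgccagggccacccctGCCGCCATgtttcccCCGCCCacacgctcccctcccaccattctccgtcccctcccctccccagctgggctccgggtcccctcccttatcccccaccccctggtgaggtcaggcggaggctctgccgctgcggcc
Inpp5d: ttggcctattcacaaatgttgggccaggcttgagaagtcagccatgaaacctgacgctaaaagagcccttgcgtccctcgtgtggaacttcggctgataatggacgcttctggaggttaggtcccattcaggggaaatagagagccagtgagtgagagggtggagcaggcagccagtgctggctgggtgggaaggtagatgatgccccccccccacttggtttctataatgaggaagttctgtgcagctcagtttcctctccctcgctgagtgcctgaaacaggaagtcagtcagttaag
Fmr1nb: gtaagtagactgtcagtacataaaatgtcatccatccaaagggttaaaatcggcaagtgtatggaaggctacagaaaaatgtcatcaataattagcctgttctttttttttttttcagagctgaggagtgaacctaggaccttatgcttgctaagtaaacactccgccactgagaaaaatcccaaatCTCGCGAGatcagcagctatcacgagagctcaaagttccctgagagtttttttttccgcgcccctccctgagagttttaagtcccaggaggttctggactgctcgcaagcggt
AI506816: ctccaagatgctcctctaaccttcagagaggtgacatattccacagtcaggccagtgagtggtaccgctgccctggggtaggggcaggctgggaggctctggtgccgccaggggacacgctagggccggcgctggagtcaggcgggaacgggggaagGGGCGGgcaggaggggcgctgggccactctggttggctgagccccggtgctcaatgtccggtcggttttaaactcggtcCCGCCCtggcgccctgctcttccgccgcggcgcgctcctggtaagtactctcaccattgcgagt
Uggt2: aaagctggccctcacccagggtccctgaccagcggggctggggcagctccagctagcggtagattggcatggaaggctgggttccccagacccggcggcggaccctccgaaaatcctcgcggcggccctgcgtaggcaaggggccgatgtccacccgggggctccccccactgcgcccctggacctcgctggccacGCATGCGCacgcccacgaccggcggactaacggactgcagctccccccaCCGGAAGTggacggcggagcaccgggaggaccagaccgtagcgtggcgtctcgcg

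The windows differ in CpG content. Uggt2 held 30 CpG dinucleotides and 71.7% G and C, AI506816 21 and 66.3%, and the Klhl13 window 15 and 69%. Fmr1nb held 9 CpG and 44% G and C, and Inpp5d 6 CpG and 53.7%. The median of all 32851 windows in the table was 7 CpG. Klhl13 had 5 annotated windows, and the other 4 held 0 to 16 CpG. The array values do not say which start was used.

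The motifs searched on both strands were chosen after the windows had been read and are no evidence of factor binding. The GC box GGGCGG was present in 35.7% of all windows and matched 2 times in AI506816 and 1 time in the Klhl13 window. GCCGCCAT, a YY1-type sequence, was in 2.24% of windows and matched in Klhl13. GCATGCGC, an NRF1-type sequence found in 2.71%, and CCGGAAGT, an ETS-type sequence found in 3.89%, both matched in Uggt2. The palindrome CTCGCGAG, present in 0.919% of windows, matched in Fmr1nb, beginning 63 bases before the annotated start. CACGTG (7.15% of windows), ATGCAAAT (1.74%) and TATAAA (13.6%) had no match in the member windows searched, and no motif matched in the Inpp5d window. No window of Arl14epl, Calcoco2 or Mpzl2 was searched. No 2 matches overlapped.

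Signals are linear intensities, and differences are given as differences of log2(signal + 16) each with its standard error (SE), a scale that understates changes of dim genes. A gene was called at a Benjamini-Hochberg adjusted p under 0.05 in limma over all 19938 genes together with a log2 difference of 1 or more in size. In iPS against R1, 92 genes or 0.461% of those tested were called, 59 higher in iPS cells (0.296%) and 33 lower (0.166%). All 8 members are among the 92 by the way they were chosen, 6 higher and 2 lower, at ranks 4 to 21 by the size of the difference. Against MEF, 12.7% of genes were called in iPS cells (5.08% higher, 7.58% lower) and 13.5% in R1 (5.56% higher, 7.94% lower). Of the members, 7 were called in iPS against MEF, 6 higher and 1 lower, and 7 in R1 against MEF, 5 higher and 2 lower. These comparisons share the iPS or the R1 arrays with the one that chose the members, and the MEF arrays with each other, so the members' counts are read as descriptions only.

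The cells carried the markers of their labels. All 6 pluripotency markers rose and all 6 fibroblast markers fell in both lines against MEF. The summed signal of the fibroblast markers was 2763 to 3282 in iPS arrays, 1765 to 2669 in R1 arrays and 25702 to 29284 in MEF arrays. In iPS against R1, 0 of the 6 were called by limma, 3 had an unadjusted p under 0.05 and 2 an adjusted p under 0.05. The median difference of the 6 was 0.50, beside -0.01 over all genes.

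**Figure D1:**
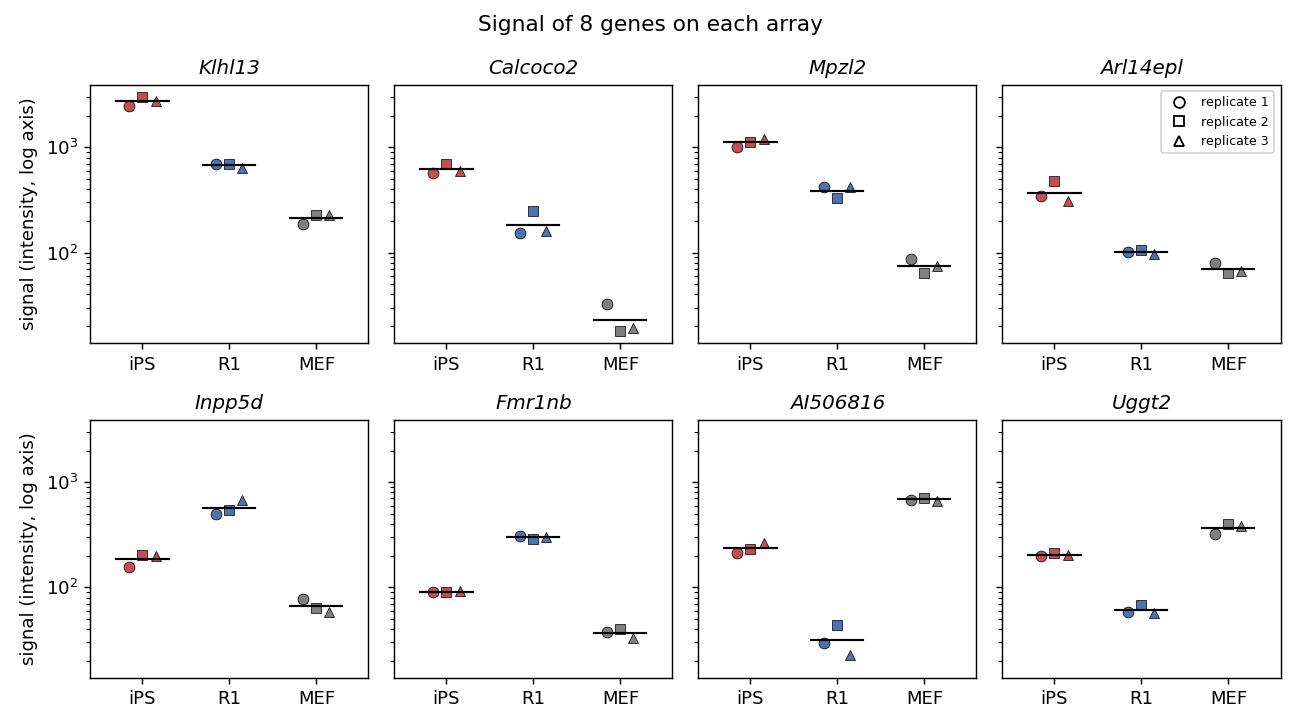
Signal of the 8 genes on each of the 9 arrays, on a log axis, with 1 panel a gene, iPS, R1 and MEF from left to right, marker shapes for replicate numbers and a bar at the group's mean of log2(signal + 16), turned back to a signal. In each panel the 3 groups occupy separate ranges: the upper row shows genes highest in iPS cells, the lower row genes with iPS cells between R1 and MEF.

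Of the 8 genes, 4 were highest in iPS cells, and 3 of these (Klhl13, Calcoco2 and Mpzl2) were already higher in R1 than in MEF. Klhl13 had signals of 2452, 3040.3 and 2759 on the iPS arrays. The R1 arrays gave 689.8, 689.8 and 644, and the MEF arrays 187, 229 and 229. The groups were fully separated, with every iPS array more than 3 times as high as every R1 array. The difference was 2.0 ± 0.09 in iPS against R1, a 4.08-fold ratio of means, 3.58 ± 0.09 in iPS against MEF and 1.58 ± 0.09 in R1 against MEF.

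Calcoco2, the autophagy receptor, was lowest in the fibroblasts. Its brighter probe set gave 572, 695 and 600.5 in iPS cells, 154, 251 and 162 in R1, and 32.4, 17.9 and 19.0 in MEF. No arrays of different groups overlapped, although R1 replicate 2 and MEF replicate 1 stood above the other arrays of their groups. The iPS minus R1 difference was 1.66 ± 0.19, and the differences from MEF were 4.04 ± 0.19 for iPS cells and 2.38 ± 0.19 for R1. The second probe set gave 343, 484 and 347 in iPS cells, 137, 179.8 and 134 in R1, and 37.0, 53.4 and 46.9 in MEF. It had the same order of groups and a smaller iPS minus R1 difference of 1.28 ± 0.16. Calcoco2 lies on chromosome 11, while the 10 nearest probe set identifiers of that second probe set all named genes of chromosome 2. Over all probe sets, 96.9% lay on the chromosome that was commonest among their nearest identifiers, so what the second probe set measures is less certain.

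Mpzl2, the epithelial adhesion protein, had signals of 1017, 1136 and 1201 in iPS cells, 419, 331 and 422 in R1, and 86.8, 64 and 75.1 in MEF. The lowest iPS array was more than 2 times as high as the highest R1 array. The difference was 1.49 ± 0.12 in iPS against R1, 3.64 ± 0.12 in iPS against MEF and 2.15 ± 0.12 in R1 against MEF.

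Arl14epl stood apart from these 3 because R1 differed little from the fibroblasts. Its signal was 347, 484 and 307 in iPS cells, 100.4, 107 and 97.0 in R1, and 79.3, 63.6 and 67.2 in MEF. The iPS arrays were the only high ones, and they also varied most among themselves. The iPS minus R1 difference was 1.73 ± 0.14 and the iPS minus MEF difference 2.18 ± 0.14. The R1 minus MEF difference of 0.45 ± 0.14 was under the minimum size for a call, although the arrays of both groups did not overlap.

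The other 4 genes had iPS levels between R1 and MEF. For Inpp5d and Fmr1nb, R1 was the highest group. Inpp5d, the SHIP1 phosphatase, had signals of 158, 201 and 199 in iPS cells, 501, 545 and 676 in R1, and 76.6, 64 and 58.5 in MEF. The iPS mean was 0.324 times the R1 mean and 2.80 times the MEF mean. Differences were -1.54 ± 0.13 in iPS against R1, 1.29 ± 0.13 in iPS against MEF and 2.84 ± 0.13 in R1 against MEF. In mouse stem cells a shorter SHIP1 form is known to start inside the gene, and the single probe set does not separate the forms.

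As Inpp5d is known from blood cells, markers of haematopoietic cells were read beside it. Their summed signal over 12 markers was 1166 to 1616 in iPS arrays, 1197 to 1425 in R1 arrays and 489 to 513 in MEF arrays. None of the 12 was called in iPS against R1 by limma (1 had an unadjusted p under 0.05, and their median difference was 0.01). Against MEF, Laptm5 alone was called in each line (8.33% of the 12, beside 12.7% and 13.5% of all genes). Its means were 904.5 in iPS cells and 816 in R1 against 70.1 in MEF. Ptprc, which encodes CD45, had means of 27.4, 25.8 and 29.8 in iPS cells, R1 and MEF. Coro1a, an actin-binding protein of blood cells, had means of 118, 142 and 90.03, under the minimum size for a call against MEF in both lines. The part of these markers in the Inpp5d difference was not tested.

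Fmr1nb was the most tightly replicated member. It had signals of 90.5, 90.5 and 91.8 in iPS cells, 311, 290.0 and 302 in R1, and 37.5, 40.5 and 33.1 in MEF. The iPS arrays lay close together, clear of both other groups. The difference was -1.57 ± 0.06 in iPS against R1, 1.01 ± 0.06 in iPS against MEF, just past the minimum size for a call, and 2.58 ± 0.06 in R1 against MEF. Without MEF replicate 3 the iPS minus MEF difference was 0.96, and with quantile normalization 0.99, under that minimum.

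Germ cell markers were read beside Fmr1nb, whose human counterpart is testis-restricted among normal tissues. Their summed signal over 9 genes was 916 to 1335 in iPS arrays, 1144 to 1398 in R1 arrays and 255 to 271 in MEF arrays. Of the 9, 6 (66.7%) were called higher in each line against MEF, beside 5.08% of all genes in iPS cells and 5.56% in R1. Sycp3, a component of the meiotic chromosome axis, was the only one called in iPS against R1, with means of 108 in iPS cells and 279 in R1 (difference -1.25, limma adjusted p = 0.00151). The iPS minus R1 differences of the 9 ran from -1.25 to 0.51, with a median of 0.07 beside -0.01 over all genes. At the upper end, Ddx4 had means of 311 in iPS cells and 210 in R1. The part of the germ cell markers in the Fmr1nb difference was not tested.

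For AI506816 and Uggt2 the fibroblasts were the highest group. AI506816, the long non-coding RNA, had signals of 212, 229 and 265 in iPS cells, 29.7, 43.4 and 22.8 in R1, and 680.3, 709 and 666 in MEF. The R1 arrays were the lowest throughout, at levels that are not told apart from background here, so no ratio to R1 is given. The differences were 2.41 ± 0.14 in iPS against R1, -1.48 ± 0.14 in iPS against MEF and -3.89 ± 0.14 in R1 against MEF. The iPS against R1 value depended on the pseudocount, being 2.89 with 1 and 1.64 with 64 in place of 16. The gene lies on chromosome 5, whereas all 10 nearest identifiers of its probe set named genes of chromosome 1, so the transcript behind this signal is less certain than for the other members.

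Uggt2, the ER glycoprotein enzyme, had signals of 199, 214 and 202 in iPS cells, 58.5, 68.1 and 56.5 in R1, and 322, 396 and 383 in MEF. The iPS arrays again lay between the other groups without overlap. The difference was 1.52 ± 0.08 in iPS against R1 and -2.31 ± 0.08 in R1 against MEF. In iPS against MEF it was -0.79 ± 0.08, under the minimum size for a call. The fibroblast marker sums given above were also higher in every iPS array than in every R1 array, and their part in the AI506816 and Uggt2 differences was not tested. Fewer cells of a type and less RNA per cell cannot be told apart in these bulk samples.

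**Figure D2:**
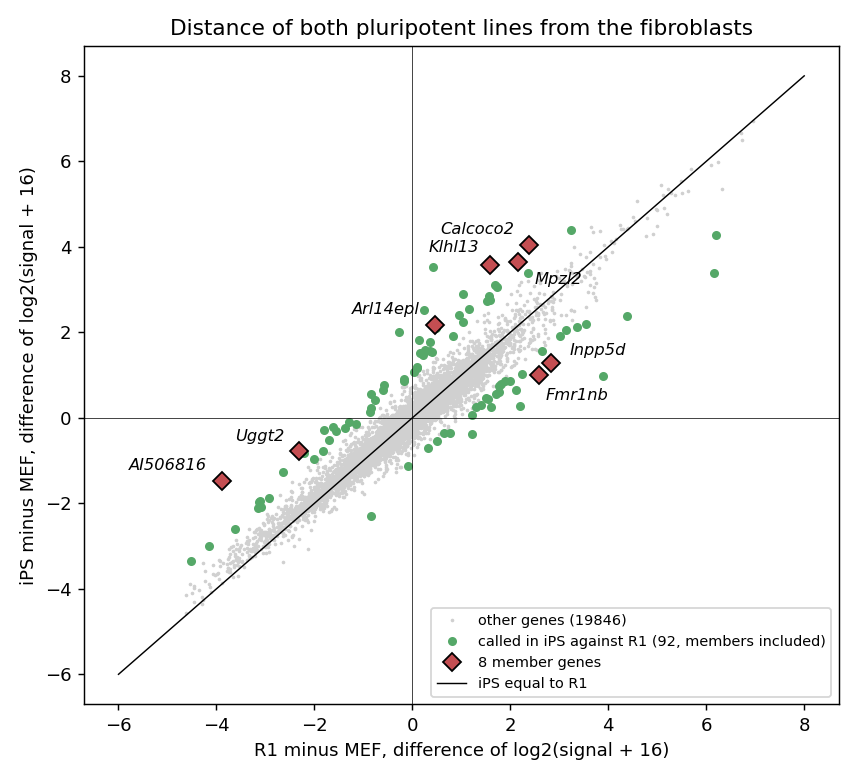
Difference from MEF of iPS cells (vertical) against that of R1 (horizontal), both as differences of log2(signal + 16), for all genes, with the 92 genes called in iPS against R1 and the 8 members marked and a line where iPS equals R1. Both axes share the MEF arrays, so the slope of the cloud is not a result, and the members lie off the line because they were chosen by that distance.

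The place of iPS cells was expressed as the percent of the way from the MEF mean (0%) to the R1 mean (100%), on the log2(signal + 16) scale. This place contains the iPS minus R1 difference that chose the members, so it is a description. The members' distance from 100% is therefore not a result. Klhl13 stood at 226%, with single iPS arrays from 216% to 236%. Calcoco2 stood at 170% (165% to 177%) and Mpzl2 at 169% (163% to 174%). The Calcoco2 signals in MEF were not told apart from background, so its place depends on the pseudocount. The second probe set of Calcoco2 gave 190% (178% to 212%). Each single iPS array lay beyond the R1 mean for all 3 genes.

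The 4 members with intermediate iPS levels all fell short of the midpoint. Inpp5d stood at 45.6% (38.1% to 49.5%), Fmr1nb at 39.3% (39.0% to 39.7%), AI506816 at 38.1% (33.9% to 41.6%) and Uggt2 at 34.1% (31.6% to 35.7%). The ranges of Inpp5d, Fmr1nb and AI506816 overlapped, and so did those of AI506816 and Uggt2. The R1 level of AI506816 was not told apart from background, so its place depends on the pseudocount. For Arl14epl no place was computed, as R1 and MEF differed by less than 1. Among all 92 called genes, 47 (51.1%) lay between R1 and MEF, 13 (14.1%) beyond R1 and 1 beyond MEF, and for 31 (33.7%) R1 and MEF differed by less than 1. Members were present in 3 of these 4 classes.

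**Figure D3:**
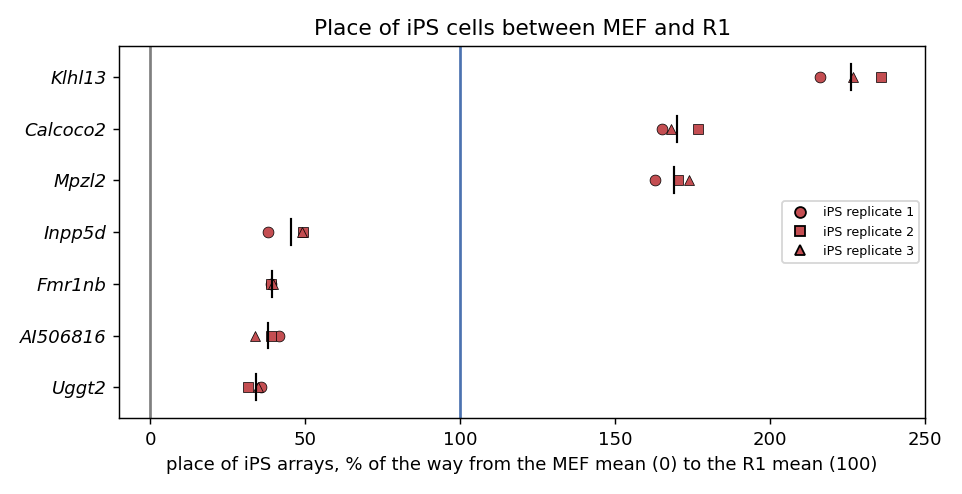
Place of the 3 iPS arrays for 7 genes, in percent of the way from the MEF mean (0, grey line) to the R1 mean (100, blue line) on the log2(signal + 16) scale. The black tick is the mean, Klhl13, Calcoco2 and Mpzl2 lie between 163% and 236%, and the other 4 genes between 31.6% and 49.5%. The genes were chosen by their difference from R1, so their distance from the blue line is not a result.

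Klhl13 and Fmr1nb are both X-linked and differed in opposite directions. Of 739 X-linked genes, Klhl13 had the highest iPS minus R1 difference and Fmr1nb the lowest. In all, 9 X-linked genes were called, 1.22% of those measured, 8 higher and 1 lower in iPS cells, against 80 of 19106 autosomal genes (0.419%). The 9 include both members. The other 7 were Mid1 (1.39), AU015836 (1.30), Pim2 (1.22), Sh3bgrl (1.16), Fndc3c1 (1.09), Hmgn5 (1.07) and Pls3 (1.01), chosen for naming after their values were seen. Without iPS replicate 1, Pim2 (0.98), Fndc3c1 (0.89) and Pls3 (0.998) fell under the minimum size. Fndc3c1 did so without R1 replicate 2 too (0.98), and Pls3 without R1 replicate 1 (0.99) or 3 (0.94). With array weights Fndc3c1 (0.85) and Hmgn5 (0.99) were under it, and with a pseudocount of 64 so were Sh3bgrl (0.97), Hmgn5 (0.93), Pls3 (0.92) and Fndc3c1 (0.81). When tested against a difference of 1, none of these 7 was called. Xist, whose RNA coats the inactive X, had mean signals of 80.8 ± 5.9 in iPS cells, 79.7 ± 16 in R1 and 796 ± 69.9 in MEF (SD, n = 3). Its iPS minus R1 difference was 0.03 ± 0.12. The Y-linked gene Uty had means of 861 in iPS cells, 320 in R1 and 134 in MEF, and Kdm5d of 82.6, 27.2 and 89.8. The third measured Y-linked gene, Eif2s3y, went the other way between the pluripotent lines, with 421 in iPS cells, 642 in R1 and 242 in MEF (iPS minus R1 -0.59 ± 0.07). Thus signals of sex-linked genes moved with the groups too. Their part in the Klhl13 and Fmr1nb values was not tested.

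Genes that work with a member, or belong to its family, were measured beside it in 7 lists drawn up with earlier results of these data known. The Fmr1nb list is an exception, as it holds Fmr1, the gene beside Fmr1nb, with relatives and partners of Fmr1 and the neighbour Aff2. Of 106 listed genes, 98 were measured, and 0 were called in iPS against R1 by limma, close to the background of 0.461%. By the p-value alone, 38 had an unadjusted p under 0.05 and 13 an adjusted p under 0.05. Among 19106 autosomal genes these counts were 3932 and 1607, which are smaller shares. The median difference of the 98 was -0.02, beside -0.01 over all genes, and the range was -0.92 to 0.42. The lowest value was that of Jam2, a junctional adhesion molecule on the Mpzl2 list. Jam2 had means of 1061 ± 280.5 in iPS cells and 1982 ± 320.3 in R1, a difference of -0.92 ± 0.21 (limma adjusted p = 0.0258). It was thus lower in iPS cells while Mpzl2 was higher. It passed the minimum size for a call when iPS replicate 2 (-1.05), iPS replicate 3 (-1.02) or R1 replicate 3 (-1.04) was left out.

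The closest relatives of the members differed little between the pluripotent lines. The iPS minus R1 difference was 0.13 ± 0.12 for Klhl9, which acts with Klhl13 on Aurora B in human cells. It was -0.12 ± 0.08 for Calcoco1 and 0.09 ± 0.05 for Tax1bp1, both of the Calcoco2 family of autophagy receptors. Mpzl1 had 0.15 ± 0.06 and Mpzl3, which lies next to Mpzl2, 0.02 ± 0.06. Uggt1, the main glycoprotein folding sensor, had -0.11 ± 0.06, Arl14ep 0.11 and Inppl1, which encodes the widely expressed SHIP2, 0.18. None of these was called.

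**Figure D4:**
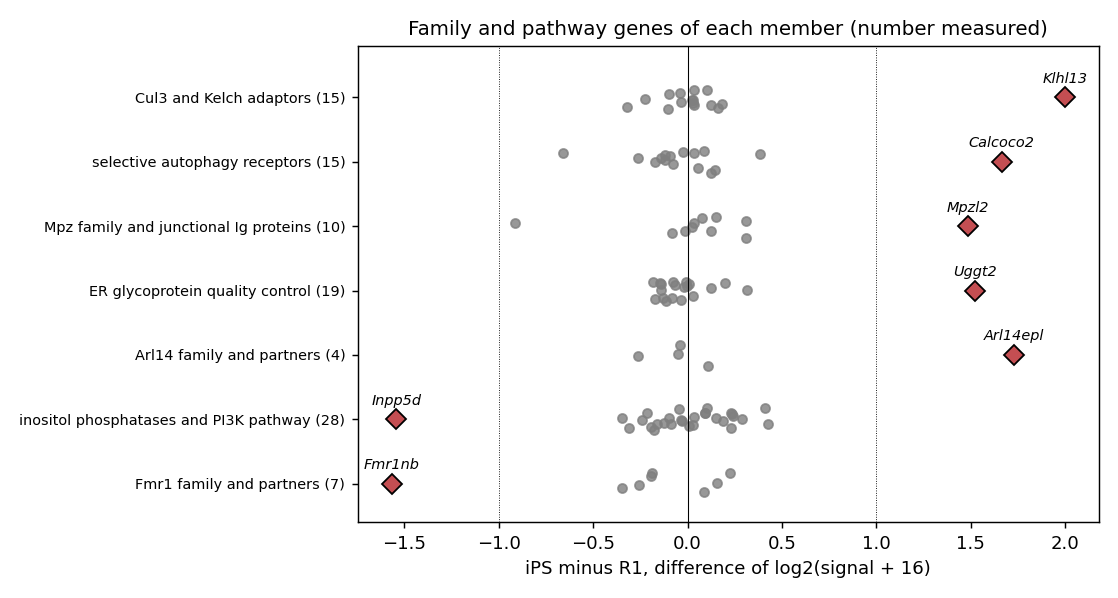
iPS minus R1 difference of log2(signal + 16) for the 98 measured genes of the 7 lists (grey points, with small vertical offsets for legibility) and for the member each list belongs to (red diamonds), with dotted lines at the minimum size for a call. All grey points lie between -0.92 and 0.42, while the members, chosen by this difference, lie outside the dotted lines. The Fmr1nb list holds the family and partners of Fmr1, the gene beside it.

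Against MEF, some genes of the lists were called. In iPS cells 7 of the 98 genes rose and 15 fell, together 22.4%, beside 12.7% of all genes. In R1 8 rose and 11 fell, 19.4% beside 13.5% of all genes. Both counts share the MEF arrays, the lists were not tested as sets, and the shares of single lists below are to be set beside the same 12.7% and 13.5%. Among the 19 genes of ER glycoprotein quality control, the list of Uggt2, 0 rose and 5 fell in iPS cells (26.3% called), and 0 rose and 3 fell in R1 (15.8%). Edem1, which helps send misfolded glycoproteins to degradation, had means of 373 in iPS cells, 374 in R1 and 846 in MEF. Os9, an ER lectin of the same route, had 250.2, 266 and 592. For both genes the pluripotent lines were alike to within 20 signal units, unlike Uggt2. The genes named from the lists here were chosen after their values were seen.

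Of the 28 genes measured on the phosphoinositide list of Inpp5d, 1 rose and 5 fell in iPS cells (21.4% called), and 0 rose and 5 fell in R1 (17.9%). Akt1, the kinase recruited by the lipid that SHIP1 degrades, fell against MEF, with means of 490.2 in iPS cells, 362 in R1 and 2075 in MEF. Dok1, an adaptor, had means of 119, 99.2 and 617.5. Inpp5d was thus higher than MEF in both lines while these genes were lower. Of the 15 autophagy genes beside Calcoco2, 1 rose and 2 fell in iPS cells, and 2 rose and 1 fell in R1 (20% called in each). Ulk1, the kinase that starts autophagy, rose in both, with means of 763 in iPS cells, 813 in R1 and 226 in MEF. Of the 15 Cul3 and Kelch genes, Kbtbd8 alone was called (6.67% in each line, under the share of all genes), at 439 in iPS cells, 472 in R1 and 52.2 in MEF.

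On the Mpzl2 list of 10 measured genes, F11r and Jam2 rose and Jam3 fell in both lines (30.0% called). F11r, which encodes the tight junction protein JAM-A, had means of 650.1 in iPS cells, 522 in R1 and 111 in MEF. On the Fmr1nb list of 7, 2 rose and 1 fell in iPS cells (42.9% called), and 3 rose and 1 fell in R1 (57.1%). These shares describe the family and partners of Fmr1, not of Fmr1nb. Aff2, the neighbour on the far side of Fmr1nb, had means of 42.4 in iPS cells, 34.0 in R1 and 131 in MEF. On the Arl14epl list of 4, Myo1e alone was called, in iPS cells (25%) and not in R1 (0 of 4), with -1.24 in iPS cells and -0.98 in R1, a difference that was not tested. Without R1 replicate 2 (-1.03) or MEF replicate 1 (-1.02) it was called in R1 as well.

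The genes next to each member were measured to see whether a difference extended along the chromosome. The 2 nearest measured genes on each side gave 32 genes, of which 0 were called in iPS against R1 by limma, close to the background of 0.461%. At an unadjusted p under 0.05 there were 7, beside 3932 of 19106 autosomal genes. The range of the 32 was -0.34 to 0.86, and the median was 0.03. The neighbours of AI506816 were taken at its annotated place on chromosome 5. The identifiers nearest its probe set named chromosome 1 genes, so these neighbours may not flank the measured transcript. The highest value was that of Slc6a14, an amino acid transporter gene and the second gene from Klhl13. It had means of 40.4 in iPS cells, 15.1 in R1 and 12.6 in MEF, a difference of 0.86 ± 0.06 (limma adjusted p = 4.79e-05), and with a pseudocount of 1 in place of 16 it was called. The genes directly beside Klhl13, the pseudogene Ppp1r2-ps7 and Wdr44, had 0.03 ± 0.05 and -0.06 ± 0.13.

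Fmr1, the fragile X gene directly beside Fmr1nb, had means of 1082 ± 13.0 in iPS cells, 969 ± 23.4 in R1 and 959.9 ± 13.9 in MEF (SD, n = 3). Its iPS minus R1 difference of 0.16 ± 0.04 was opposite in sign to that of Fmr1nb and was not called. Aff2, on the other side, had 0.22 ± 0.06. Dnajc3, an ER chaperone gene beside Uggt2, had means of 450.2 in iPS cells, 472 in R1 and 1805 in MEF and fell in both lines. Its iPS minus R1 difference was -0.06 ± 0.06, while that of Uggt2 was 1.52. Hs6st3, on the other side of Uggt2, had 0.14 ± 0.09.

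The remaining direct neighbours had small differences, in the order of the genes on the chromosome. Atp5g1 and Ttll6, beside Calcoco2, had 0.08 ± 0.06 and 0.23 ± 0.11. Cd3e, the T cell receptor subunit beside Mpzl2, had -0.04 ± 0.08. Lvrn and Commd10, beside Arl14epl, had 0.01 ± 0.06 and 0.05 ± 0.07. Neu2 and the autophagy gene Atg16l1, beside Inpp5d, had -0.04 ± 0.05 and -0.16 ± 0.07. Srpk2 and Pus7, beside the annotated AI506816 locus, had -0.34 ± 0.11 and 0.15 ± 0.04.

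**Figure D5:**
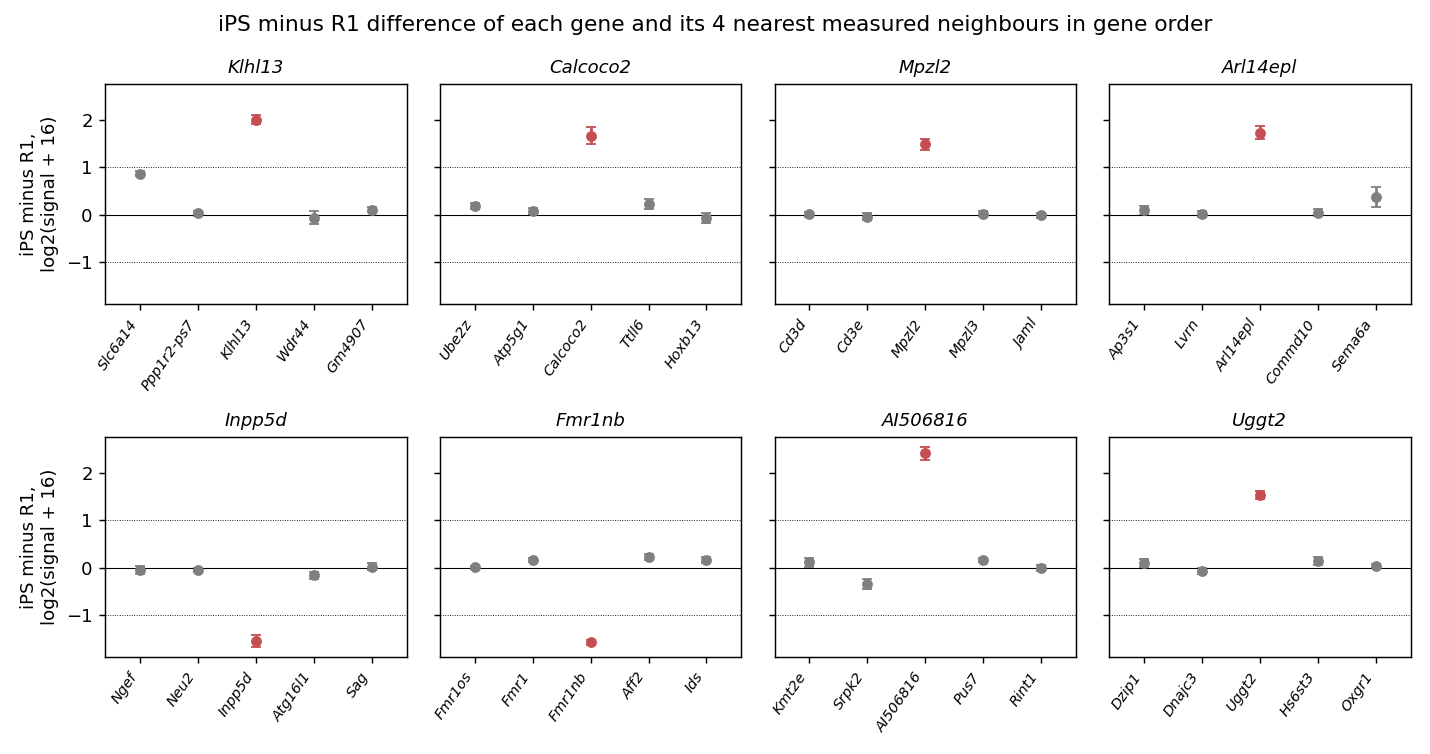
iPS minus R1 difference of log2(signal + 16) for each of the 8 genes (red) and the 4 measured genes nearest to it in gene order (grey), with its SE as bars and dotted lines at the minimum size for a call. In every panel the member alone passes the dotted lines, and the nearest approach among the neighbours is Slc6a14 in the Klhl13 panel at 0.86. The AI506816 panel shows neighbours of the annotated locus, which may not flank the measured transcript.

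The genes whose profiles over the 9 arrays were most like those of the members were found by the root mean square difference (RMS) of log2(signal + 16) values centred on each gene's mean. The iPS against R1 difference that chose the members is part of this measure, so it is a description. For Klhl13 the closest were Mpzl2 (RMS 0.32) and Cldn4 (0.35), and for Calcoco2 they were Mpzl2 (0.32) and Klhl13 (0.42). For Mpzl2 they were Ap1m2 and Cldn6 (0.25 each). Cldn4 and Cldn6 encode claudins of tight junctions and Ap1m2 an epithelial sorting adaptor. Cldn6 had means of 844 in iPS cells, 408 in R1 and 66.3 in MEF, with an iPS minus R1 difference of 1.02 ± 0.12.

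Inpp5d and Fmr1nb were each other's closest gene (0.20), although they lie on chromosomes 1 and X. The next were Tex14 for Inpp5d (0.22) and Sohlh2 for Fmr1nb (0.21), both known from germ cells. Tex14 had means of 127 in iPS cells, 284 in R1 and 32.1 in MEF, and Sohlh2 of 95.7, 242 and 38.7. For Arl14epl the closest were Dppa3 (0.29) and Nlrp4f (0.32), both known from oocytes. Dppa3, also called Stella, had means of 290.2 in iPS cells, 82.6 in R1 and 56.3 in MEF.

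Uggt2 had the closest match of all members, Clmp (0.12), an adhesion molecule, followed by Cd24a (0.24). Clmp had means of 225 in iPS cells, 75.3 in R1 and 405 in MEF. AI506816 had the least close matches, Ccn2 (0.52), a secreted matrix-associated factor, and Sh3bgrl (0.55). Ccn2 had means of 1865 in iPS cells, 830.4 in R1 and 7288 in MEF.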

How the data were processed

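The authors deposited linear intensity values for each probe set of Affymetrix whole-transcript arrays of 9 cultures. GCOS 1.4 is named in the submitters' processing notes, with its role unstated. How background was corrected and probes were summarized and normalized is not given in the sources used here. Array medians were 78.2 to 83.3, no 2 arrays were identical, and no further normalization was applied. A low signal was not told apart from background, since detection calls were not used. Mean signals were under 50 for 30.1% of genes. The number of arrays limits the precision.

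The platform annotation gave 1 symbol to 21789 of 35557 probe sets and several to 1621, and the remaining 12147 stay unnamed. For the 999 genes with more than 1 probe set, that with the highest mean was used. Values were fitted as log2(signal + 16) for all arrays together, with a mean per group and no replicate block, by lmFit and eBayes of limma 3.58.1 in R 4.3.3. Benjamini-Hochberg adjustment ran over 19938 genes, and the code was tested on simulated data. Gene order and promoter windows came from RefSeq GRCm38.p6. Alternatives covered scaling, the pseudocount, dim genes, probe set choice, thresholds, array weights and left-out arrays.

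The members, gene lists and tests were chosen with earlier results of these data known. The genes named were the members, their closest relatives, called list genes and neighbours, the direct neighbours, the 2 genes most alike over 9 arrays (predicted symbols passed over) and Xist. Other genes named, such as uncalled marker genes and the Y-linked genes, fell outside this rule. They are to be read as chosen after their values were seen. Marker lists covered pluripotent, fibroblast, haematopoietic, germ, trophoblast and primitive endoderm cells and sex-linked genes.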

Additional observations from a re-analysis of the deposited data

How the results depend on the processing

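Each result was recomputed under 21 alternatives, 9 of which left out an array. The 92 genes called in iPS against R1 became 45 with a pseudocount of 64, 385 with a 1.5-fold minimum and 10 when tested against a difference of 1. The 2524 called in iPS against MEF became 4919 and 1643 under those last 2 settings, and the 2691 in R1 against MEF became 5075 with the 1.5-fold minimum. The cause was not tested beyond the settings' own construction. The share of called genes that were higher in iPS than R1, 64.1%, stayed at 64.1% to 65.6% under both other scalings. It was 54.5% with the 1.5-fold minimum, 40.0% when tested against 1 and 51.5% to 68.4% with an array left out, lowest without iPS replicate 3. Of the partner genes 2, Jam2 and Gabarapl2, were called with the 1.5-fold minimum, and 0 to 1 with an array left out. Of the neighbouring genes 1, Slc6a14, was called with the 1.5-fold minimum and 1 with a pseudocount of 1. The replicate block left the counts at 92, 2524 and 2691, and at 0 partner and 0 neighbouring genes. Same-numbered arrays correlated at -0.08 to 0.24 in their deviations, with 4 of 9 pairs over 0.1, so the numbers were not taken to pair the samples, although the 3 pairs of replicate 1 correlated at 0.21 to 0.24.

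No member changed sign under any of the 21 alternatives. Their iPS minus R1 differences moved by more than the replicate spread in 7 of 168 recomputations, all with another pseudocount: AI506816 ranged from 1.64 to 2.89, Uggt2 from 1.11 to 1.74, Fmr1nb from -1.72 to -1.24, and Arl14epl reached 1.4. All 8 stayed past both thresholds in iPS against R1 except when tested against 1, where 3 (Klhl13, AI506816 and Fmr1nb) did. The members were chosen by this difference, so these counts are a description and no support for it. Against MEF, 6 of 294 recomputed calls were lost, all in iPS against MEF. Fmr1nb lost its call with quantile normalization (0.99), a pseudocount of 64 (0.62), without MEF replicate 3 (0.96) and when tested against 1. Inpp5d lost it with a pseudocount of 64 (0.94) and when tested against 1. Uggt2 gained a call with the 1.5-fold minimum. Of 4626 recomputed values of other named genes, 75 lost and 44 gained a call. Dim signals limit Calcoco2 in MEF and AI506816 in R1, which cannot be told from background here.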

Other observations

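Markers of the trophoblast and the primitive endoderm, which arise beside the epiblast in the early embryo, were measured as well. The summed signal of 7 trophoblast markers was 586 to 860.3 in iPS arrays, 516 to 532 in R1 arrays and 516 to 575 in MEF arrays. None was called in iPS against R1 by limma. An unadjusted p under 0.05 was found for 2, and an adjusted p under 0.05 for 1, Gata3. Eomes, a T-box factor, had means of 268 in iPS cells, 142 in R1 and 39.6 in MEF. Its iPS arrays gave 407, 194 and 202, so the iPS mean leaned on replicate 1. The iPS minus R1 difference of Eomes was 0.77 ± 0.25. Gata3 had means of 87.6 in iPS cells, 57.8 in R1 and 213 in MEF. Its iPS minus R1 difference was 0.49 ± 0.05 (limma adjusted p = 0.000511), under the minimum size for a call. Against MEF, Eomes was called higher and Gata3 lower in both lines (28.6% of the 7, beside 12.7% and 13.5% of all genes). The summed signal of 8 primitive endoderm markers was 945 to 1124 in iPS arrays, 1225 to 1321 in R1 arrays and 2609 to 2766 in MEF arrays. None of these was called in iPS against R1 either, while 4 had an unadjusted p under 0.05 and 3 an adjusted p under 0.05. Dab2, an endocytic adaptor that fibroblasts also express, had means of 125 in iPS cells, 195 in R1 and 1109 in MEF. Pdgfra had 119, 148 and 884, and Lama1 went the other way with 325, 409 and 82.6. Against MEF, 1 of the 8 was called higher and 3 lower in iPS cells (50%, beside 12.7% of all genes). In R1, 1 was called higher and 2 lower (37.5%, beside 13.5%).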
